A study of Homo sapiens with 16 samples.

Results

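The comparison described here asks what Corin changed in SKNO-1 cells that already received all-trans retinoic acid (ATRA). SKNO-1 is a leukaemia line from acute myeloid leukaemia with the RUNX1-RUNX1T1 fusion gene, and its medium contained GM-CSF at 10 ng/mL. The series holds 16 libraries of total RNA from SKNO-1 and a second leukaemia line, U-937, and 4 of them enter this comparison. It sets SKNO-1 treated with ATRA at 0.1 µM for 24 h against SKNO-1 treated with ATRA and Corin at 0.1 µM each for 24 h, with 2 libraries per group, and uses no solvent control. The U-937 groups with the same agents, doses and time, grown without added GM-CSF, serve only for a test of the difference between the lines. All 60603 genes of the authors' table are in the comparison, and 16745 had enough counts to be tested. Each leukaemia is represented by 1 line, and the labels do not say whether replicates came from separate cultures, so p-values measure only the spread between these libraries, which may be technical.

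ATRA binds retinoic acid receptors (RARs), which sit on DNA with retinoid X receptors and exchange corepressors for coactivators when the ligand is bound. CoREST is a corepressor complex in which a scaffold protein joins a histone demethylase, LSD1 (gene KDM1A), to the deacetylases HDAC1 and HDAC2, and in myeloid cells it is brought to DNA by factors such as GFI1 and GFI1B. Corin is a synthetic dual inhibitor directed at the demethylase and deacetylase activities of CoREST. Retinoids are known for driving maturation of some myeloid leukaemia cells.

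The 4 libraries summed to 33.7 and 37.8 M estimated counts with ATRA and to 32.9 and 33.0 M with both agents. Where 2 pairs of levels are set side by side, the ATRA libraries come first. Levels are in CPM, counts scaled to a common library total, and a gene is called, or said to have risen or fallen, at an adjusted p under 0.05 in edgeR's quasi-likelihood test. Between replicates, the log2 difference over 9405 well-expressed genes had a standard deviation of 0.134 with ATRA and 0.112 with both agents. RUNX1T1, which marks SKNO-1, was at 108 and 95 CPM with ATRA and 126 and 108 CPM with both agents, and HOXA9 and HOXA10, which mark U-937, had 0 counts in all 4 libraries. Of the general myeloid markers, MPO was at 3526 and 3848 CPM, CD33 at 84.4 and 86.2 CPM and KIT at 623 and 617 CPM with ATRA, while CD34 had 7 counts over both ATRA libraries.

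The make-up of the libraries moved with the addition of Corin. Protein-coding genes took 85.3% and 84.7% of the counts with ATRA and 77.5% and 79.8% with both agents, while short structural RNAs, such as the RNAs of the signal recognition particle and of RNase P, took 9.93% and 10.9% against 16.7% and 14.6%. On the length-scaled TPM values, which sum to the same total in each library, genes lay lower with both agents than on the CPM scale, by 0.29 on the log2 scale (median over 10488 genes of at least 5 CPM). Of the 2770 such genes called higher, 663 had a lower mean TPM with both agents, as did 0 of the 556 that rose at least 2-fold. With protein-coding genes alone in the fit, an alternative chosen after seeing the data, 4631 were called higher and 4515 lower. Without spike-in values RNA content was not measured, and in bulk RNA fewer cells of a kind and less RNA per cell cannot be told apart.

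Adding Corin to ATRA changed most of the expressed genes, mostly by small amounts, and most of the large changes were rises. Of 16745 genes tested, 10578 (63.2%) were called, 5363 higher (32.0%) and 5215 lower (31.1%). At least 2-fold rises were called in 2557 genes (15.3%) and at least 2-fold falls in 253 (1.51%), together 16.8%. At 8-fold or more, 660 genes were higher and 5 lower. The median log2 fold change was 0.94 among genes called higher and -0.40 among genes called lower, and 73.4% of all called genes changed by less than 2-fold. To be tested, a gene had to reach 10 counts, at the median library size, in 2 of the 4 libraries. Of the genes tested, 1147 reached this in neither ATRA library and so entered only through the libraries with both agents. Of these, 977 were called higher, each by at least 2-fold, and the filter favours rises in such genes. Their number is given beside the counts of listed genes, and where none is given at most 1 called gene of the list was of this kind. The groups did not overlap in 80.4% of the genes tested. With SKNO-1 treated with Corin alone added, a fit of 6 libraries called 10723 genes. Its common biological coefficient of variation, a measure of spread between replicates, came to 0.0421, against 0.0440 with the 4 libraries. With the solvent control (DMSO) included too, in a fit of all 8 SKNO-1 libraries, this coefficient reached 0.107 and 7828 genes were called. Of the genes named below, 17 lost their call in that fit, among them SPI1, AZU1, RUNX1, PMAIP1, RAC2, KLF9, RCOR1, UTP14C, EEF1G, RPL37, RPLP0 and SLC2A3P1.

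Large rises were mostly in genes of low abundance. Under a mean of 1 CPM 35.6% of the genes rose at least 2-fold, against 28.2% at 1 to 5 CPM, 7.74% at 5 to 50 CPM and 1.37% at 50 CPM or more. In the last class the median log2 fold change was -0.21, so the median gene of this class lay slightly lower with both agents. Among long noncoding RNAs 19.5% rose at least 2-fold, and among protein-coding genes 15%. The filter favours such rises, and 977 of the genes that rose at least 2-fold entered only through the libraries with both agents. What part of these shares comes from the filter was not tested.

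**Figure D1:**
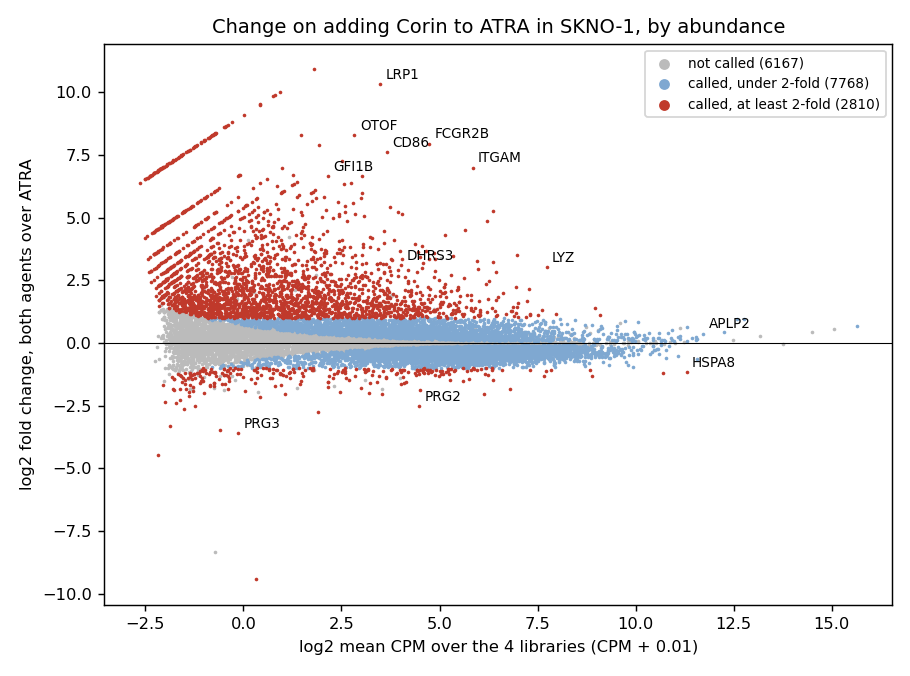
Log2 fold change of each of the 16745 genes tested (y axis, both agents over ATRA) against its mean abundance over the 4 libraries (x axis, log2 of CPM + 0.01). Red points are called at 2-fold or more, blue points are called under 2-fold, grey points are not called. Rises reach far above 5 on the log2 scale at low abundance, and the plot narrows to the right. Slanted rows at the left are genes with few or 0 counts with ATRA, whose fitted values depend on the prior count.

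The 15 genes with the largest rises (mean of at least 5 CPM) included surface molecules of myeloid and antigen-presenting cells. ITGAM (ENSG00000169896.18, chromosome 16, 31259967 to 31332892, plus strand) encodes CD11b, the alpha chain of the complement receptor that is widely used as a marker of myeloid maturation. It was at 0.948 and 0.853 CPM with ATRA against 115 and 113 CPM with both agents (log2 fold change 6.98, SE 0.0867, adjusted p = 5.5e-18). Both ATRA libraries were under 1 CPM and both combination libraries above 100 CPM. CD86 (ENSG00000114013.16, chromosome 3, 122055362 to 122121139, plus strand), a costimulatory ligand for T cells, was at 0.148 and 0.107 CPM with ATRA against 24.7 and 25.4 CPM (log2 fold change 7.59, SE 0.182, adjusted p = 1.55e-14). FCGR2B (ENSG00000072694.20, chromosome 1, 161663143 to 161678654, plus strand), an inhibitory receptor for the Fc part of IgG, was at 0.237 and 0.186 CPM with ATRA against 52.2 and 53.7 CPM (log2 fold change 7.95, SE 0.133, adjusted p = 2.06e-16). FCGR2B has near-identical relatives, so the split of reads between them is uncertain. That both combination libraries stood above both ATRA libraries was a condition for naming genes by the size of their rise.

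LRP1 (ENSG00000123384.13, chromosome 12, 57128483 to 57213361, plus strand), a large endocytic receptor, had 0 and 1 counts with ATRA and 1475 counts over both libraries with both agents. The ratio was 1592, with a 95% counting interval of 285 to 62925. OTOF (ENSG00000115155.17, chromosome 2, 26457203 to 26558756, minus strand), the membrane-fusion protein otoferlin known from the inner ear, had 3 counts over the ATRA libraries and 936 with both agents, which is 337-fold more (interval 115 to 1636). Both intervals reflect the error of counting alone, since PCR copies of a molecule cannot be recognised. Both genes were near silent with ATRA and at 24.2 and 20.5 CPM and 13.3 and 15 CPM with both agents.

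The other 10 of the largest rises were in genes of several kinds. TLR1 (0.207 and 0.346 against 14.9 and 16.4 CPM) and TLR6 (0.207 and 0.320 against 11.4 and 12.2 CPM), which pair with TLR2 to sense bacterial lipopeptides, rose by 5.78 and 5.45 on the log2 scale. The annotated TLR1 and TLR6 overlap on chromosome 4, so their counts may not be independent. MS4A4A (log2 fold change 7.26), a membrane protein of macrophages, ADAM28 (6.67), a membrane metalloprotease of leukocytes, and GPR84 (5.60), a receptor for medium-chain fatty acids, rose as well. CAPG (log2 fold change 6.38) caps actin filaments, PLIN4 (6.34) coats lipid droplets, and CD22 (5.97) is best known as an inhibitory lectin of B cells. WFDC1 (log2 fold change 5.41), a secreted protein with a protease-inhibitor fold, completes the list together with RGPD1 (5.56), a member of a family of near-identical copies whose counts are uncertain. These 10 genes had at most 0.603 CPM with ATRA on average.

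**Figure D2:**
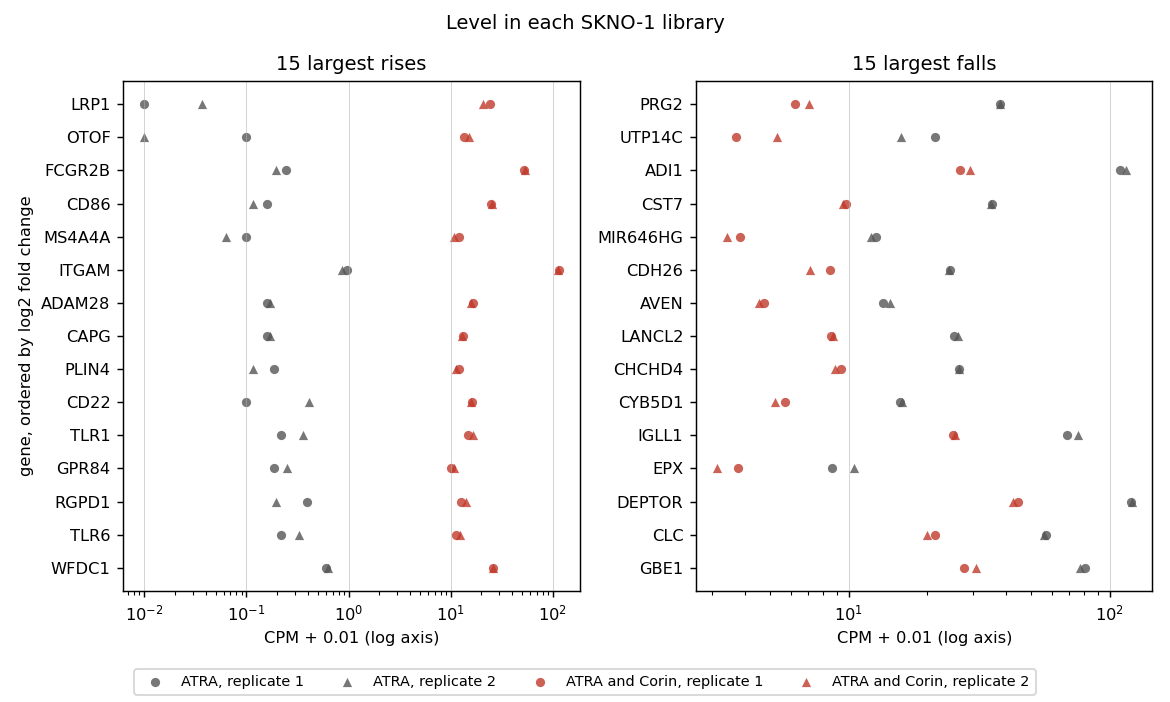
CPM + 0.01 (log axis) in each of the 4 SKNO-1 libraries for the 15 genes with the largest log2 rises (left) and the 15 with the largest log2 falls (right). Grey marks are ATRA and red marks are ATRA with Corin, with a circle for replicate 1 and a triangle for replicate 2. The rises start near or under 1 CPM, whereas the falls start from 8.65 to 121 CPM and stop above 3 CPM. The minimum mean of 5 CPM for named genes sets part of this difference in starting level.

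The 15 largest falls were smaller than the largest rises and began from genes that were well expressed with ATRA. The starting level is set in part by the rule for naming. At a mean of at least 5 CPM, a gene that fell had to start above that level, whereas one that rose could start near silence. PRG2 (ENSG00000186652.10, chromosome 11, 57386780 to 57390650, minus strand), the major basic protein of eosinophil granules, fell from 37.9 and 37.9 CPM to 6.21 and 7.04 CPM (log2 fold change -2.52, SE 0.0826, adjusted p = 6.4e-13). CST7 (ENSG00000077984.6, chromosome 20, 24949269 to 24959928, plus strand), the cathepsin inhibitor cystatin F, fell from 35.4 and 35.2 CPM to 9.73 and 9.53 CPM (log2 fold change -1.87, SE 0.0744, adjusted p = 5.94e-12). ADI1, an enzyme of the methionine salvage pathway, fell from 110 and 115 CPM to 26.6 and 29.1 CPM (log2 fold change -2.01, SE 0.0539, adjusted p = 5.22e-14). The rule for naming falls likewise required both combination libraries to lie under both ATRA libraries. EPX (eosinophil peroxidase, log2 fold change -1.48) and CLC (the Charcot-Leyden crystal protein of eosinophils and basophils, -1.46) were also in this group, so that 3 of the 15 encode eosinophil proteins.

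DEPTOR, an inhibitor of the mTOR kinase, fell from 121 ± 0.388 to 43.6 ± 1.39 CPM (SD, n = 2). GBE1, which branches glycogen, fell from 78.9 ± 2.57 to 29.1 ± 2.20 CPM. IGLL1, a surrogate light chain of early B cells, fell from 72.2 ± 5.01 to 25.3 ± 0.321 CPM. The remaining falls lay between -1.53 and -2.04 on the log2 scale: the mitochondrial import factor CHCHD4, the apoptosis inhibitor AVEN, the cadherin CDH26, the long noncoding RNA MIR646HG, LANCL2, CYB5D1 and UTP14C. UTP14C is an intronless copy of a gene on another chromosome, so its counts are uncertain, and its ATRA replicates were apart at 21.4 and 15.9 CPM.

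Measured by the change in CPM rather than by fold, the 10 largest falls included chaperones, tubulins and the transferrin receptor. HSPA8, the constitutive HSC70 chaperone, fell from 3485 and 3483 to 1582 and 1519 CPM (log2 fold change -1.17, SE 0.0311, adjusted p = 5.22e-14). TFRC, the receptor for iron-loaded transferrin, fell from 2331 and 2309 to 1013 and 1000 CPM (log2 fold change -1.20, SE 0.0299, adjusted p = 2.16e-14). CDK6, a kinase of the G1 phase, fell from 1106 and 1049 to 652 and 628 CPM (log2 fold change -0.75, SE 0.0346, adjusted p = 3.34e-11). The other 7, with their log2 fold changes, were HSP90AA1 (-0.94), CALR (-0.61), HMGB1 (-0.87), HMGN2 (-1.33), TUBA1B (-0.54), TUBB (-0.43) and MPO (-0.63). Several of these have processed pseudogenes that can take or give reads.

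The largest CPM rises were modest in fold. APLP2, a relative of the amyloid precursor protein, rose from 2898 and 2975 to 3827 and 3797 CPM (log2 fold change 0.38, SE 0.0296, adjusted p = 1.66e-08). ITPR2, a calcium channel of the endoplasmic reticulum, rose from 786 and 752 to 1409 and 1349 CPM (log2 fold change 0.84, SE 0.0339, adjusted p = 6.76e-12), and NCOA4, the receptor for autophagy of ferritin, rose by 0.41 on the log2 scale. The elongation factor EEF2 (log2 fold change 0.90) and the ribosomal proteins RPL13A (0.50) and RPL3 (0.41) rose on the CPM scale and also had a higher mean TPM. EEF1G (log2 fold change 0.23), RPL37 (0.29), RPS3 (0.26) and RPLP0 (0.19) rose on the CPM scale but had a lower mean TPM with both agents, for example 3762 against 3652 TPM for RPL37. For those 4 genes the direction depends on the scale.

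A set of genes was close to silent with ATRA alone. Of the genes tested, 278 had at most 3 counts over both ATRA libraries, 92 of them 0, and 214 of the 278 were protein-coding. Such a gene could pass the filter only through the libraries with both agents, so that all 278 were called higher is a description and not a result. Beside LRP1 and OTOF, those with the most counts were FLNC, a filamin of striated muscle (2 and 500 counts, 270-fold more, interval 74.3 to 2234), and FCRLA, a B-cell protein related to Fc receptors (1 and 364 counts, 393-fold more, interval 70.1 to 15560). The pseudogene SLC2A3P1 had 0 and 459 counts, at least 165-fold higher when the ATRA group is set to the 3 counts that 0 allows, but it can share reads with its parent gene. In the other direction, 4 genes tested had at most 3 counts with both agents.

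Genes that handle retinoids or carry their signal were mostly higher with both agents. Of 26 listed genes 15 were tested, and 9 were called higher and 2 lower, against 32.0% and 31.1% of all genes tested. The median log2 fold change was 1.03 (0.64 with the GC trend of each library removed), and 0.04 over all genes tested. Rises of at least 2-fold were called in 8 of the 15, against 15.3% of all genes, and 1 of the 9 entered only through the libraries with both agents. The promoters of CYP26A1 and RARB are shown because they hold a pair of RAR core letters in direct repeat. Each line gives the 250 bases before the gene start in RefSeq on GRCh38.p14, plus strand, CYP26A1 at chr10:93073643-93073892 and RARB at chr3:25428013-25428262. Both starts lie inside the longer genes of the annotation used for the coordinates below. Capitals mark the matched letters.
CYP26A1: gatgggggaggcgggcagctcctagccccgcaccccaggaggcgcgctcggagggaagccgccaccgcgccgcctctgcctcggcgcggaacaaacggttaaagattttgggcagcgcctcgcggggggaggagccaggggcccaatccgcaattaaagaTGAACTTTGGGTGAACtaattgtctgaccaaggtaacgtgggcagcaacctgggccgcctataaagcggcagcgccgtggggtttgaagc
RARB: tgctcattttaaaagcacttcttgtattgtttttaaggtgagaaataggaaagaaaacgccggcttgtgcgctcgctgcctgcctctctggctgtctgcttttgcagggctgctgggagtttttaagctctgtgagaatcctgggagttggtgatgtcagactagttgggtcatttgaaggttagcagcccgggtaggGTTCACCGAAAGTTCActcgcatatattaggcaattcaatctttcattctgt
The patterns searched on both strands were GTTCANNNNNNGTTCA, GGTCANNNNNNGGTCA, GTTCANNNNNNGGTCA and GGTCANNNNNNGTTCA. The match lay 90 to 75 bases before the start on the minus strand in CYP26A1, and 52 to 37 bases before the start on the plus strand in RARB. A match to any of the 4 was found in 61 of 35116 RefSeq promoter windows of 300 bases (0.174%), which run from 250 bases before to 50 after the start, and in 2 of the 35 genes with a window among those of this list and of the list of ATRA-responsive genes below. A match describes letters and does not show binding.

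CYP26A1 (ENSG00000095596.12, chromosome 10, 93073475 to 93077885, plus strand), the hydroxylase that clears retinoic acid, was at 5.81 and 6.05 CPM with ATRA and 19.6 and 21.5 CPM with both agents (log2 fold change 1.79, SE 0.0991, adjusted p = 2.9e-10). RARB (ENSG00000077092.19, chromosome 3, 24687887 to 25597932, plus strand), a receptor that is itself a target of RARs, was at 0.533 and 0.639 against 2.32 and 2.08 CPM (log2 fold change 1.89, SE 0.270, adjusted p = 1.32e-05). DHRS3 (ENSG00000162496.9, chromosome 1, 12567910 to 12618210, minus strand), which reduces retinal to retinol, was at 3.14 and 3.65 against 28.8 and 29.3 CPM (log2 fold change 3.09, SE 0.1000, adjusted p = 5.48e-13). In all 3 genes both combination libraries lay above both ATRA libraries. The receptors RARA (log2 fold change 0.85), RARG (2.67) and RXRA (1.56) rose. The carriers CRABP1 (28 and 113 counts over the groups, log2 fold change 2.12) and CRABP2 (3 and 45 counts, 16.2-fold more, interval 5.2 to 81.4) rose at low levels. RDH10, which makes retinal from retinol, fell from 33.1 and 32 to 16.2 and 15.6 CPM (log2 fold change -1.03, SE 0.0702, adjusted p = 3.23e-09), and the corepressor NCOR1 fell as well (-0.30).

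Of 20 further genes known to respond to ATRA 15 were tested, with 9 called higher and 2 lower (4 with the GC trend removed), against 32.0% and 31.1% of all genes tested, and a median of 0.90. Of the 9, 1 entered only through the libraries with both agents. LRRC32, which presents latent TGF-beta on the cell surface, was at 1.21 and 1.79 CPM with ATRA and 19.4 and 21 CPM with both agents (log2 fold change 3.74, SE 0.147, adjusted p = 5.35e-12). ASB2, a ubiquitin ligase subunit induced by retinoids in leukaemia cells, was at 1.93 and 2.40 against 18.6 and 19.4 CPM (log2 fold change 3.13, SE 0.128, adjusted p = 8.26e-12). PRAM1 (log2 fold change 2.07), TNFAIP2 (1.20), PLAAT4 (1.07), SMAD3 (0.90) and TGM2 (0.49) rose as well. Not all genes of the list moved up: CD38, an ectoenzyme and classical retinoid target, fell from 555 and 536 to 294 and 288 CPM (log2 fold change -0.91, SE 0.0333, adjusted p = 2.44e-12), and the phosphatase DUSP6 fell by 0.58 on the log2 scale.

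The listed subunits of CoREST itself changed by less than 2-fold, in both directions. Of 21 genes for its subunits, recruiters and the opposing acetyltransferases 19 were tested, 8 called higher and 5 lower, against 32.0% and 31.1% of all genes tested, with a median of 0.02. The 5 lower were 3 with the GC trend removed or with all 8 SKNO-1 libraries in the fit, and 2 with the replicate block and the GC correction together. KDM1A, the demethylase, fell from 253 and 255 to 221 and 219 CPM (log2 fold change -0.21, SE 0.0339, adjusted p = 5.92e-05), and HDAC2 (log2 fold change -0.30), the scaffold RCOR1 (-0.20) and HDAC1 (-0.11) fell slightly. With the GC trend of each library removed HDAC2 was at -0.08, and RCOR1 at -0.05 and HDAC1 at -0.07 were not called. HDAC1 was also not called without combination replicate 1 (-0.12) or replicate 2 (-0.11). The scaffold paralog RCOR2 (log2 fold change 0.91), PHF21A (0.50), which reads unmethylated histone H3, and HMG20B (0.54), a protein with an HMG box, rose. With the GC trend removed RCOR2 was at 0.51. HMG20B was at 0.15 with the GC trend removed and at 0.54 with all 8 SKNO-1 libraries in the fit, and was called in neither. The recruiters split, and 2 of them, GFI1B and SNAI1, entered only through the libraries with both agents. GFI1B (ENSG00000165702.14, chromosome 9, 132944000 to 132991687, plus strand) had 6 counts over the ATRA libraries and 586 with both agents, 0.0889 and 0.0799 against 8.46 and 9.26 CPM (log2 fold change 6.66, SE 0.264, adjusted p = 5.35e-12). GFI1, its paralog, was at 371 and 377 against 381 and 383 CPM (log2 fold change 0.03, SE 0.0320, adjusted p = 0.404) and was not called, except with protein-coding genes alone in the fit (0.08, adjusted p = 0.0430). On the length-scaled TPM values GFI1 stood at a mean of 74.4 and GFI1B at 3.73 with both agents. ZEB1 (log2 fold change 3.43), SNAI1 (3.12) and ZNF217 (1.44), which bind DNA and CoREST, rose, and REST fell from 197 and 191 to 136 and 133 CPM (log2 fold change -0.53, SE 0.0376, adjusted p = 5.15e-09).

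Transcription factors of myeloid maturation were mostly higher. Of 28 listed 21 were tested, 18 called higher and 1 lower (2 without ATRA replicate 2 or combination replicate 1), against 32.0% and 31.1% of all genes tested, with a median of 0.81. At least 2-fold rises were called in 7 of the 21, against 15.3% of all genes tested. SPI1 (PU.1), a master factor of myeloid cells, rose from 18.1 and 20.4 to 27.9 and 28.9 CPM (log2 fold change 0.56, SE 0.0753, adjusted p = 7.1e-06). CEBPA rose from 14.9 ± 0.271 to 24.7 ± 1.78 CPM, and CEBPB, a factor of monocytes, from 7.01 ± 0.567 to 19.7 ± 1.29 CPM. CEBPD, in contrast, fell from 7.30 ± 0.604 to 3.39 ± 0.0949 CPM (log2 fold change -1.11, SE 0.140, adjusted p = 3.77e-06). The AP-1 genes JUN (log2 fold change 2.16) and FOS (1.14) rose, as did VDR (0.85), ID1 (0.98), BATF3 (2.13) and NR4A1 (1.83). JUN, FOS, BATF3 and NR4A1 stayed under 6 CPM on average with both agents.

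Surface receptors of phagocytes were mostly higher. Of 45 listed 41 were tested, 34 called higher and 4 lower, against 32.0% and 31.1% of all genes tested, with a median of 1.99. At least 2-fold rises were called in 27, against 15.3% of all genes. Of the 34, 13 entered only through the libraries with both agents, CD86, FCGR2B, ITGAL and CD14 among them. ITGAX (CD11c) was at 0.444 and 0.533 CPM with ATRA and 17.1 and 15.6 CPM with both agents (log2 fold change 5.05, SE 0.168, adjusted p = 7.09e-13). ITGB2, the beta chain shared by CD11b and CD11c, rose from 5.78 and 5.67 to 22.6 and 22.1 CPM (log2 fold change 1.96, SE 0.0937, adjusted p = 5.1e-11), and ITGAL (CD11a) had 2 and 103 counts, 55.6-fold more (interval 15 to 465). With ITGAM, these 4 leukocyte integrin chains were higher in both combination libraries.

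CR1, a complement receptor, rose from 39.2 and 39.97 to 161 and 155 CPM (log2 fold change 1.99, SE 0.0443, adjusted p = 7.46e-15). FCGR2A, an activating Fc receptor that shares sequence with FCGR2B, rose from 40.05 and 40.8 to 135 and 131 CPM (log2 fold change 1.72, SE 0.0447, adjusted p = 3.97e-14). CSF1R, the receptor for M-CSF, was at 0.770 and 1.47 against 10.5 and 10.1 CPM (log2 fold change 3.19), and CD68, a protein of macrophage lysosomes, at 14.2 and 13.7 against 55.9 and 55.4 CPM (log2 fold change 1.99). LY96 (log2 fold change 5.99), TREM1 (5.55), C5AR1 (3.79) and TLR8 (3.93) rose from under 1 CPM. CD14, a co-receptor for lipopolysaccharide, had 0 counts with ATRA and 53 with both agents, at least 19.1-fold higher. TLR4 (log2 fold change -0.27), TLR2 (-0.56), CD244 (-0.50) and P2RY2 (-0.98) fell, of which TLR4 was at -0.06 and not called with the GC trend removed.

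Of the 6 subunits of the phagocyte NADPH oxidase, which makes superoxide, 3 were called higher and 1 lower, against 32.0% and 31.1% of all genes tested. Of the 3, CYBB entered only through the libraries with both agents. The 1 lower was 0 with all 8 SKNO-1 libraries in the fit and 2 with the GC trend removed. CYBB, the catalytic chain, had 1 and 27 counts, 29.1-fold more (interval 4.80 to 1193), so it stayed rare with both agents (0.432 and 0.386 CPM). NCF4 rose from 108 and 118 to 154 and 155 CPM, and RAC2 fell by 0.22 on the log2 scale. NCF1 was called higher (2.11), but reads of its pseudogene copies cannot be told from its own. Of 23 genes for scavenging and lipid mediators 13 were tested, with a median of 0.84. Of these, 9 were called higher and 2 lower (1 with all 8 SKNO-1 libraries in the fit), against 32.0% and 31.1% of all genes tested. ALOX5, the lipoxygenase that starts leukotriene synthesis, rose from 6.66 and 6.58 to 74.6 and 73.4 CPM (log2 fold change 3.48, SE 0.0681, adjusted p = 1.36e-15), and its partners ALOX5AP (log2 fold change 0.71) and LTA4H (1.02) rose too. VSIG4, a complement receptor of tissue macrophages, rose from 4.95 and 4.58 to 47 and 48.8 CPM (log2 fold change 3.33, SE 0.0809, adjusted p = 1.69e-14), and FABP5 fell by 0.84 on the log2 scale.

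Genes of the MHC class II pathway, which presents peptides to CD4 T cells, rose together. Of 11 listed 8 were tested, and these 8 were called higher, against 32.0% of all genes tested, with a median of 2.01. Each of the 8 rose at least 2-fold, against 15.3% of all genes tested. HLA-DMB entered only through the libraries with both agents, and the other 3 listed had too few counts to be tested. The groups did not overlap in any of the 8, and in 80.4% of all genes tested. CIITA, the master activator of the pathway, rose from 11.7 and 12.1 to 34.2 and 36.1 CPM (log2 fold change 1.56, SE 0.0733, adjusted p = 4.11e-11). HLA-DRA rose from 20.3 and 18.7 to 53.4 and 55 CPM (log2 fold change 1.48, SE 0.0641, adjusted p = 1.71e-11), and CD74, the invariant chain, from 91.4 and 101 to 216 and 219 CPM (log2 fold change 1.18). HLA-DMA, which loads peptides, rose from 0.800 and 0.719 to 9.95 and 10.2 CPM (log2 fold change 3.73), and its partner HLA-DMB had 0 and 75 counts, at least 27.0-fold higher. HLA-DRB1 (log2 fold change 1.52) belongs to a polymorphic family, so its counts are uncertain.

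For MHC class I, 12 of 13 listed genes were tested, with a median of 0.39. Of these, 7 were called higher and 3 lower, against 32.0% and 31.1% of all genes tested. HLA-B (log2 fold change 1.26), HLA-E (1.10) and PSMB9 (1.59) rose at least 2-fold, whereas PSMB8, an immunoproteasome subunit like PSMB9, fell by 0.59 on the log2 scale. Of 25 interferon-stimulated genes 20 were tested, with a median of 0.75. Of these, 13 were called higher and 2 lower, against 32.0% and 31.1% of all genes tested. Of the 13, 1 entered only through the libraries with both agents. BST2 (tetherin), which holds virus particles on the cell, rose from 3.32 and 2.80 to 42.9 and 45.1 CPM (log2 fold change 3.85, SE 0.0937, adjusted p = 1.69e-14), and RSAD2 (log2 fold change 1.66), IFIT2 (2.15) and MX2 (2.78) rose as well. IFIH1, a sensor of viral RNA, fell from 23.9 and 23.4 to 15 and 15.1 CPM (log2 fold change -0.65, SE 0.0751, adjusted p = 1.37e-06).

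Of 30 chemokines, cytokines and their receptors 20 were tested, with a median of 1.15. Of these, 14 were called higher and 2 lower, against 32.0% and 31.1% of all genes tested. The 2 lower were 1 with all 8 SKNO-1 libraries in the fit, and 4 of the 14 entered only through the libraries with both agents. CXCL8, which attracts neutrophils, rose from 11.9 and 10.2 to 41.8 and 42 CPM (log2 fold change 1.93, SE 0.0777, adjusted p = 6.91e-12). CCR2, the receptor that guides monocytes, was at 0.237 and 0.240 against 7.23 and 8.31 CPM (log2 fold change 5.01, SE 0.230, adjusted p = 3.24e-11). CXCR4, which retains cells in the marrow, rose from 18.2 and 19.7 to 56.9 and 55.1 CPM (log2 fold change 1.56), and TNFSF10 (TRAIL), a death ligand, from 7.88 and 6.77 to 35.6 and 35 CPM (log2 fold change 2.27). IL1B rose by 0.75 on the log2 scale, and VEGFA fell by 0.39.

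Granule proteins went both ways. Of 28 listed 18 were tested, 8 called higher and 10 lower, against 32.0% and 31.1% of all genes tested, with a median of -0.66. Of the 10, PRG3 entered only through the ATRA libraries. LYZ, the lysozyme of monocytes and granulocytes, rose from 48.1 and 44.8 to 386 and 371 CPM (log2 fold change 3.03, SE 0.0438, adjusted p = 3.85e-17). PRTN3 (proteinase 3) rose from 27.1 and 31.8 to 61.7 and 68.9 CPM (log2 fold change 1.15, SE 0.0784, adjusted p = 9.86e-08), and AZU1 (log2 fold change 0.76) and CTSG (0.57) rose, whereas ELANE (neutrophil elastase) fell from 36.6 and 41 to 18.8 and 20.5 CPM (log2 fold change -0.98). MPO (myeloperoxidase) fell from 3526 and 3848 to 2352 and 2428 CPM (log2 fold change -0.63). The neighbouring genes AZU1, PRTN3 and ELANE on chromosome 19 thus differed in direction.

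The eosinophil proteins of the list were lower throughout. Beside PRG2, EPX and CLC, these were PRG3 (121 and 9 counts over the groups, log2 fold change -3.59), RNASE3 (log2 fold change -1.29) and RNASE2 (-0.73). Of 14 genes of mast cells and basophils 8 were tested, with a median of 1.60. Of these, 7 were called higher and 1 lower, against 32.0% and 31.1% of all genes tested. FCER1A, HDC and ENPP3 entered only through the libraries with both agents, and the other 6 listed were not tested. FCER1A, the IgE-binding chain, had 4 and 255 counts over the groups (log2 fold change 6.01, SE 0.381, adjusted p = 1.18e-09), and CPA3 (log2 fold change 1.35), HDC (2.15) and HPGDS (1.85) rose from under 2 CPM. KIT, the stem cell factor receptor, fell from 623 and 617 to 298 and 297 CPM (log2 fold change -1.06, SE 0.0315, adjusted p = 1.93e-13), and GATA2, a factor of these lineages, rose from 12.7 and 12.6 to 24.8 and 25.1 CPM (log2 fold change 0.98).

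Of 19 tested genes of progenitors 7 were called higher and 7 lower, shares (36.8% each) near those of all genes tested (32.0% and 31.1%), with a median near 0. Beside KIT, LMO2 fell from 109 and 104 to 44 and 44.9 CPM (log2 fold change -1.26, SE 0.0465, adjusted p = 2.53e-12), IGFBP7 from 18.7 and 17.3 to 6.76 and 6.74 CPM (log2 fold change -1.41, SE 0.0990, adjusted p = 4.38e-09) and MYC from 374 and 408 to 288 and 302 CPM (log2 fold change -0.40). ERG rose from 69.5 and 67.9 to 128 and 126 CPM (log2 fold change 0.88), MYB from 581 and 569 to 768 and 751 CPM (log2 fold change 0.40) and RUNX1 by 0.36 on the log2 scale. Of 32 erythroid and megakaryocyte genes 11 were tested, 4 called higher and 4 lower, shares (36.4% each) near those of all genes. Among the 4 higher, SELP, an adhesion molecule of platelet granules, was at 3.64 and 3.60 against 47.7 and 45.1 CPM (log2 fold change 3.68). ITGA2B (CD41) was at 4.15 and 4.40 against 33 and 31.9 CPM (log2 fold change 2.92). The falls reached -1.20 on the log2 scale, in TFRC, the transferrin receptor whose levels are given above. The summed level of the list fell from 2522 and 2506 to 1256 and 1239 CPM. Most of that sum was TFRC, so its fall describes TFRC more than the list. The globin genes of the list had too few counts to be tested.

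**Figure D3:**
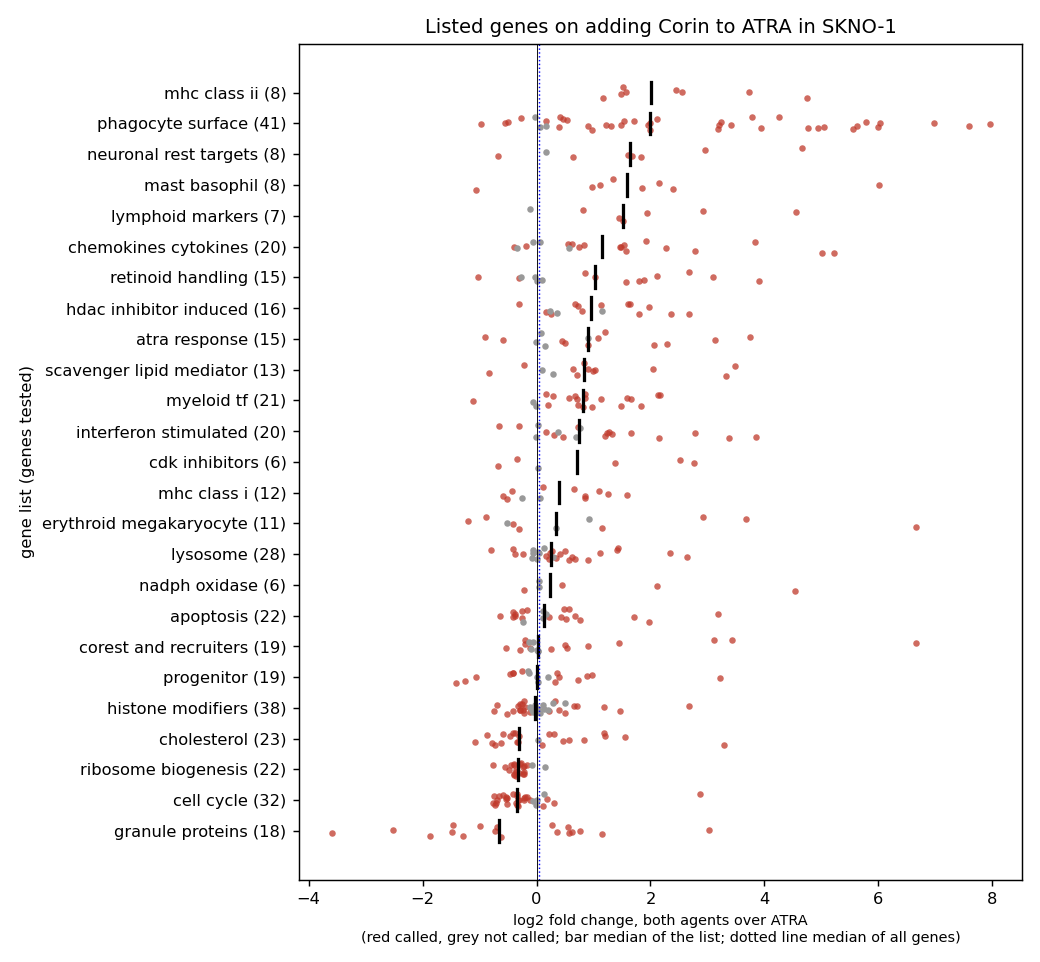
Log2 fold change (x axis, both agents over ATRA) of every tested member of 25 gene lists (y axis, number tested in brackets). Red points are called, grey points are not, black bars are list medians and the dotted line is the median of all genes. Genes with 0 counts with ATRA are drawn at their lower bound. By median, MHC class II and phagocyte surface genes lie highest and granule proteins lowest. Ribosome biogenesis factors lie between -0.77 and 0.15, and most cell cycle genes lie under 0, with CCND1 far to the right.

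Genes of the cell cycle were mostly slightly lower. All 32 listed were tested, 24 called lower and 4 higher, against 31.1% and 32.0% of all genes tested, with a median of -0.33. Abundant genes in general lay lower. Of 10488 genes of at least 5 CPM, 4849 were called lower, and at 50 CPM or more the median over all genes was -0.21. The 4 higher were 2 by DESeq2 or without combination replicate 2, and 1 with all 8 SKNO-1 libraries in the fit. None fell 2-fold. Their summed level was 6507 and 6454 CPM with ATRA and 5090 and 5050 CPM with both agents. CCNA2 fell from 139 and 139 to 81.6 and 81.8 CPM (log2 fold change -0.77, SE 0.0397, adjusted p = 1.33e-10), CCNB1 from 174 and 175 to 107 and 109 CPM (log2 fold change -0.69, SE 0.0377, adjusted p = 2.38e-10) and MKI67, the Ki-67 antigen, from 566 and 560 to 450 and 424 CPM (log2 fold change -0.37). CCND1, a cyclin that was rare here, rose from 12 to 83 counts over the groups (log2 fold change 2.87).

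Inhibitors of cyclin-dependent kinases split. Of 7 listed 6 were tested, 3 called higher and 2 lower, against 32.0% and 31.1% of all genes tested, with a median of 0.70. The 2 lower were 1 by DESeq2 or with all 8 SKNO-1 libraries in the fit. CDKN1A (p21) rose from 2.31 and 1.81 to 11.3 and 12.3 CPM (log2 fold change 2.52, SE 0.146, adjusted p = 4.81e-10), CDKN2D (p19) from 3.44 and 3.54 to 8.80 and 9.35 CPM (log2 fold change 1.38, SE 0.130, adjusted p = 1.31e-07) and CDKN1C (p57) from 5 to 33 counts over the groups. CDKN2C (p18) fell from 75.6 and 80.2 to 47.4 and 49.9 CPM (log2 fold change -0.68). The other one called lower was at -0.35, and the one not called was at 0.03. Of 22 ribosome biogenesis factors, all tested, 20 were called lower and 0 higher (1 higher with protein-coding genes alone), with a median of -0.33. Over all genes tested the shares were 31.1% and 32.0%, and the median of all genes at 50 CPM or more was -0.21. NIP7, a factor of large-subunit assembly, fell most, from 92.1 and 94.7 to 56.7 and 53 CPM (log2 fold change -0.77), and NCL (nucleolin) fell from 623 and 625 to 481 and 471 CPM (log2 fold change -0.39). None of these factors changed 2-fold.

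Of 23 apoptosis genes 22 were tested, 10 called higher (6 by DESeq2) and 8 lower, or 45.5% and 36.4% against 32.0% and 31.1% of all genes tested, with a median of 0.14 that moved to 0.00 with the GC trend removed. At least 2-fold rises were called in 3 of the 22, against 15.3% of all genes tested. These 3, TNFRSF10B, BMF and BBC3, are known to promote cell death. TNFRSF10B, a receptor for TRAIL, rose from 4.71 and 4.74 to 41.3 and 44.4 CPM (log2 fold change 3.18, SE 0.0840, adjusted p = 4.77e-14), BMF from 4.80 and 4.98 to 19.1 and 19.2 CPM (log2 fold change 1.97, SE 0.102, adjusted p = 1.37e-10) and BBC3 (PUMA) from 15 to 46 counts over the groups (adjusted p = 0.0538 by DESeq2). Of the survival genes, BCL2L1 (log2 fold change -0.64), BCL2 (-0.38), XIAP (-0.42) and MCL1 (-0.26) fell, BIRC3 rose (0.76), and BCL2A1 (-0.25) and BCL2L2 (0.11) were not called. BCL2A1 was called at -0.32 without ATRA replicate 2. BID (log2 fold change -0.41) and PMAIP1 (-0.39), which act in cell death, fell too.

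Genes known to be induced by histone deacetylase inhibitors were mostly higher. Of 16 tested, 12 were called higher and 1 lower, against 32.0% and 31.1% of all genes tested, with a median of 0.96. Of the 12, 2 entered only through the libraries with both agents. The 1 lower was 0 with all 8 SKNO-1 libraries in the fit. H1F0, the linker histone H1.0, rose from 23.4 and 24.3 to 122 and 122 CPM (log2 fold change 2.36, SE 0.0485, adjusted p = 2.72e-15), CLU (clusterin) from 3.02 and 3.01 to 10.1 and 11 CPM and SYT11 from 15.8 and 17 to 53.4 and 49.6 CPM (log2 fold change 1.65). KLF9 fell from 26.7 and 26 to 20.4 and 22.1 CPM (log2 fold change -0.31). Neuronal genes that REST and CoREST keep silent in other tissues stayed rare. Of 30 listed 25 were under 1 CPM in all 4 libraries and 8 were tested, 6 called higher and 1 lower, against 32.0% and 31.1% of all genes. Of the 6, 3 entered only through the libraries with both agents, L1CAM and SYN1 among them. L1CAM, a neural adhesion molecule, had 0 and 70 counts, at least 25.2-fold higher, and SYN1 rose from 6 to 45 counts. Of 38 enzymes that write or erase histone and DNA marks 9 were called higher and 14 lower (5 and 8 with all 8 SKNO-1 libraries in the fit), with a median of -0.02, shares of 23.7% and 36.8% against 32.0% and 31.1% of all genes. Rises of at least 2-fold were called in 3 of the 38, a smaller share than the 15.3% of all genes tested. These 3 were the deacetylases HDAC5 (log2 fold change 1.18), HDAC9 (1.47) and HDAC11 (2.68). HDAC9 and HDAC11 lost their calls without combination replicate 2 (1.32 and 2.09). HDAC9 also lost it without ATRA replicate 1 (1.11) and by DESeq2 (1.47, adjusted p = 0.0714).

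Lysosomal genes were mixed but leaned higher, with a median of 0.25. Of 28 tested, 16 were called higher and 4 lower, against 32.0% and 31.1% of all genes tested. CTSH rose from 11.6 and 11.7 to 58.9 and 59.3 CPM (log2 fold change 2.34, SE 0.0646, adjusted p = 7.65e-14), CTSB from 41 and 42.4 to 89.4 and 90.6 CPM (log2 fold change 1.11, SE 0.0473, adjusted p = 1.35e-11) and PSAP from 560 and 586 to 905 and 918 CPM (log2 fold change 0.67), all proteins of lysosomal breakdown, and GLA (log2 fold change -0.80) and CTSC (-0.42) fell. Of 23 tested genes of cholesterol metabolism 12 were called lower and 10 higher, against 31.1% and 32.0% of all genes tested, with a median of -0.30. With the GC trend removed 8 were higher and the median was -0.10. With all 8 SKNO-1 libraries in the fit 11 were lower and 5 higher. The directions differed by step. Of 11 listed enzymes of synthesis 10 fell, among them HMGCS1 from 320 and 306 to 147 and 151 CPM (log2 fold change -1.07) and SQLE from 304 and 311 to 178 and 179 CPM (log2 fold change -0.79), and the other one, MVD, was called higher at 0.30. MVD lost this call without ATRA replicate 1 (0.22) or combination replicate 2 (0.17) and was at -0.07 with the GC trend removed. Of genes for export, ABCA1 rose from 74.7 and 75.1 to 176 and 165 CPM (log2 fold change 1.19). ABCG1 (log2 fold change 0.84), the activator of both, NR1H3 (1.19), and APOE (10 and 93 counts over the groups) rose as well. The difference between the steps was not tested.

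Markers of other cells were few. Of 16 lymphoid markers 7 were tested, 6 called higher and 0 lower, against 32.0% and 31.1% of all genes tested. Of the 6, 3 entered only through the libraries with both agents. The summed level of the list was 27.4 and 28.1 CPM with ATRA and 34.0 and 32.6 CPM with both agents. Most of it came from CD79B (22.2 and 22.9 against 21.4 and 20.2 CPM), which was not called, but was called at -0.35 with the GC trend removed. CD79A (log2 fold change 1.52) and IL7R (2.93) rose from under 1 CPM, 5 of the 16 had 0 counts in all 4 libraries, and CD3D, CD3E and MS4A1 were not tested. Of 13 markers of epithelial, stromal, endothelial and liver cells 2 were tested, PECAM1 (7.61 and 7.30 against 22.7 and 20.8 CPM) and PDGFRB (49 and 95 counts over the groups, log2 fold change 1.06). Both were called higher, against 32.0% of all genes tested. PDGFRB lost its call without combination replicate 2 (0.43) or ATRA replicate 1 (0.93). The summed level of the list was 8.44 and 8.21 against 24.2 and 23.5 CPM, and most of it came from PECAM1 alone. What part the markers of other cells have in the results was not tested.

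The effect of adding Corin was then compared with the same addition in U-937, in a fit of 8 libraries. The difference between the lines was called in 6886 of 19022 genes (36.2%), with a lower effect in U-937 in 3887 and a higher one in 2999. With library totals in place of scaled totals, 4517 were lower and 2193 higher, and the median difference over all genes moved from -0.07 to -0.18 on the log2 scale. Because GM-CSF was added to one line alone, line and medium cannot be told apart. Among 14716 genes tested in both lines, 1790 rose at least 2-fold in SKNO-1 and 1087 in U-937, and 634 did in both, 35.4% of the SKNO-1 genes and 58.3% of the U-937 genes. At least 2-fold falls numbered 187 in SKNO-1 and 1415 in U-937, with 47 shared, 25.1% and 3.32% of each. Over all 16876 genes tested in U-937, 1673 were called higher and 1568 lower by at least 2-fold. Among the lists, the cell cycle genes stood at a median of -0.33 in SKNO-1 and -2.01 in U-937, with a called difference in 28 of 32, against 36.2% of all genes. Phagocyte surface genes had medians of 1.99 and 1.57, with a called difference in 25 of 44, and MHC class II genes 2.01 and 3.20, with a called difference in 4 of 8. Each median is over the genes tested in that line. For MHC class II these were 8 in SKNO-1 and 6 in U-937, so its medians cover unlike sets of genes.

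The 15 largest rises and falls were chosen by their effect in SKNO-1, which is part of the difference between the lines, so the direction of that difference is set in part by the choice and the values are a description. Of the 15 rises, 14 had a lower called effect in U-937. ITGAM was already at 97.6 ± 5.93 CPM with ATRA in U-937 and reached 365 ± 10.8 CPM with both agents (SD, n = 2), and its log2 effect was lower there (difference -5.07). CD86 was at 4.31 ± 0.848 and 170 ± 20.9 CPM in U-937 (difference -2.28), and MS4A4A at 134 ± 0.312 and 449 ± 53.3 CPM (difference -5.51). All 3 had higher levels in U-937 than in SKNO-1 in either treatment, on totals scaled within each fit. OTOF was the exception, with 2 and 142 counts in U-937 (difference -2.11). Of the 15 falls, 8 had a higher called effect in U-937, among them CST7 (difference 1.04) and DEPTOR (3.95 ± 0.540 and 3.85 ± 0.249 CPM in U-937, difference 1.44). EPX and CLC had 0 counts in the U-937 libraries.

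**Figure D4:**
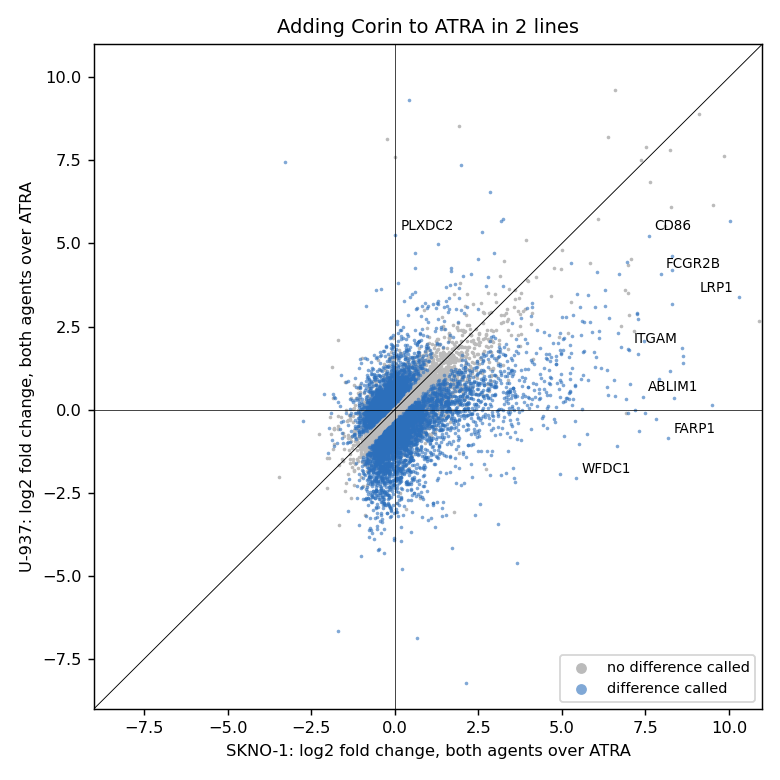
Log2 fold change of each gene tested in both lines, in SKNO-1 (x axis) and in U-937 (y axis), both agents over ATRA. Blue points had a called difference between the lines, grey points did not, and the diagonal marks equal effects. Points at the right near the horizontal line are genes that rose in SKNO-1 and moved little in U-937, and the cloud below that line holds genes lower with both agents in U-937.

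The direction of change moved with the GC content of the transcripts. Genes were put into 5 equal classes by GC content. In the class with the lowest GC content, 598 were called higher and 1580 lower, with a median log2 fold change of -0.19. In the class with the highest, 1757 were higher and 365 lower, with a median of 0.39. Taken over genes, which do not vary independently, Pearson's correlation of the effect with GC content was 0.290 over well-expressed genes, and the difference between the ATRA replicates also followed GC content (-0.435), more than that between the replicates with both agents (-0.132). With the GC trend of each library removed, 5881 genes were called higher and 4613 lower.

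**Figure D5:**
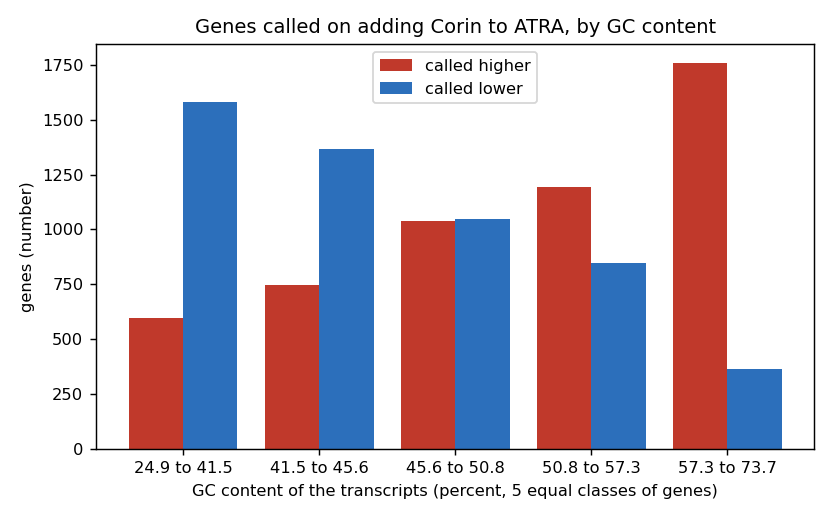
Number of genes called higher (red) and lower (blue) when Corin was added to ATRA (y axis) in each of 5 equal classes of genes by GC content in percent (x axis). Calls of lower genes decline from 1580 to 365 from the first to the last class, and calls of higher genes increase from 598 to 1757.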

How the data were processed

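Total RNA was sequenced with a stranded kit in paired-end runs of 100 bases, per the labels' protocols. The submitters' processing notes name Trimmomatic, STAR, RSEM, deepTools and DESeq2 and the build hg38, without roles. The authors deposited estimated counts per gene, as RSEM gives them, and TPM values per gene. The strand setting and the annotation release are not given in the sources used here. The file names carry a single-end mark that the labels do not explain. The authors' table holds 0 spike-in rows.

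Estimated counts were rounded to whole numbers and tested with edgeR 4.0.16 (R 4.3.3): filterByExpr, TMM scaling, glmQLFit with robust dispersion and glmQLFTest on the 4 libraries, with Benjamini-Hochberg adjustment over all genes tested. The difference between the lines was the interaction in a fit of 8 libraries. GC content and coordinates come from GENCODE 44 on GRCh38, matched by gene ID, and promoters from RefSeq on GRCh38.p14. Deposited TPM values were used only to check the scale.

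Genes were named by rule: the 15 largest log2 rises and falls at a mean of at least 5 CPM, the 10 largest rises and falls in CPM among protein-coding genes, the 5 near-silent genes with the most counts, the 3 largest line differences in each direction, and members of 27 gene lists. The rises and falls were taken from called genes with both combination libraries beyond both ATRA libraries. The comparison and the lists were chosen with earlier results of these data known. The tests were checked on simulated counts in which few genes changed, evenly in both directions. These counts held no GC trend and no shift in library make-up, so the check does not cover those conditions.

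Alternatives were library totals, RLE scaling, DESeq2 1.42.0, no filter, a filter of 1 CPM in 2 libraries, a GC correction, the replicate number as a block, 6 or 8 SKNO-1 libraries in the fit, each library left out and, chosen after seeing the data, protein-coding genes alone. Floors of 3 counts and counting intervals (exact, 95%) cover counting error only.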

Additional observations from a re-analysis of the deposited data

Results flagged for a closer look

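The effect of adding Corin to ATRA differed between SKNO-1 and U-937 in 6886 of 19022 genes by edgeR's interaction test (adjusted p under 0.05), and the values below are the log2 effect in U-937 minus that in SKNO-1. The 3 largest negative differences among genes of at least 5 CPM were in FARP1, WFDC1 and ABLIM1. FARP1, which couples to the actin cytoskeleton, had 0 and 69 counts over the SKNO-1 groups and 1479 and 744 over the U-937 groups, and its fitted difference of -8.97 depends on the prior count. WFDC1 rose in SKNO-1 and fell in U-937, with a difference of -7.40 (SE 0.271, adjusted p = 7.26e-16). ABLIM1, an actin-binding protein, had 0 and 41 counts in SKNO-1 and 789 and 942 in U-937, with a fitted difference of -6.97. The 3 largest positive differences were in TNFSF15, PLXDC2 and BNC2. TNFSF15, a cytokine of the TNF family, had 4 and 12 counts in SKNO-1 and 15 and 1992 in U-937, with a difference of 5.60 (SE 1.16, adjusted p = 0.000475), which lost its call without the ATRA replicate 1 of SKNO-1 (4.62, adjusted p = 0.118). PLXDC2, a transmembrane protein, was not called in SKNO-1 and had 6 and 219 counts in U-937, with a difference of 5.32 (SE 0.318, adjusted p = 2.27e-12). BNC2, a zinc finger protein, had 14 and 0 counts in SKNO-1 and 1688 and 1020 in U-937, with a fitted difference of 5.26. In 5 of these 6 genes, all but WFDC1, 1 line had at most 6 counts in a group, so the size of the difference rests on few reads.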

How the results depend on the processing

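The counts over all genes called in SKNO-1 stayed within 1.5 times their reported values under every alternative run, except the at least 2-fold falls, which numbered 150 with a filter of 1 CPM in 2 libraries and 140 with protein-coding genes alone, both settings that test fewer genes. DESeq2 called 8696 genes. Of 54 counts of listed genes called in 1 direction, 18 moved by more than 1.5 times under at least 1 alternative. Of these, 11 were reported at 2 or fewer and moved by at most 2 genes, and 7 were reported at 4 or more: CoREST genes lower, cell cycle, apoptosis, cholesterol and lymphoid genes higher, and histone modifiers in both directions. Lymphoid markers higher numbered 3 with the filter of 1 CPM, which tested 4 of them. Leaving out each library in turn gave 9491 to 10308 called genes, 4703 to 5198 higher and 4788 to 5125 lower. For the difference between the lines it gave 5630 to 7495 called genes, and DESeq2 gave 5989. Where 1 library was left out of a group, its lone partner is assumed to vary like the other groups. The replicate number as a block gave 10438 called genes in SKNO-1 and 7548 for the difference between the lines. The replicate differences of the 2 SKNO-1 groups correlated at 0.239, and 2 pairs do not show that the numbers pair the samples. Of 209 named genes called in SKNO-1, 187 kept their call in all 15 alternatives that could test them and 22 lost it in at least 1, among them 17 with all 8 SKNO-1 libraries in the fit. Only MVD changed sign, to -0.0678 with the GC trend removed and -0.0676 with the replicate block as well, and the cause was not tested. CD33 lost its call without combination replicate 2 (0.12), and HDAC2 with the block and GC correction together (-0.08). With 2 residual degrees of freedom the p-values rest on the spread shared across genes, and genes with few counts in the ATRA libraries have folds that depth limits.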

Other observations

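The 300-base RefSeq promoter windows were also searched for letters that other myeloid factors are known to bind, and the values are a description. The PU.1 letters GAGGAAGT were found in 2.59% of all windows on either strand, the GFI1 core AAATCNC in 10.9% and the C/EBP letters TTGCNNAA in 10.5%. Among the 11 of the 15 largest rises with a window, GAGGAAGT was in 0, AAATCNC in 1 (CD86) and TTGCNNAA in 2 (CAPG and MS4A4A). Among the 9 of the 15 largest falls with a window, GAGGAAGT and AAATCNC were in 0 and TTGCNNAA in 2 (AVEN and UTP14C).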
